A study of Mus musculus with 8 samples.

Results

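Complement genes of the innate immune system were described in sorted myeloid cells of the mouse spleen. The members were chosen by name, as components and receptors of complement in myeloid cells, at a time when the authors' own genotype comparison of the same table was known. They are C1qa, C1qb, C1qc, C3, Cfp, Cfb, C3ar1 and C5ar1, 8 of the 23084 genes listed, and the values of that genotype comparison were not used. Flow cytometry was used to sort CD11b+Ly6C+ (monocytic) cells and CD11b+Ly6G+ (granulocytic) cells from spleens for RNA-seq. The mice were wt or LmnaMyeKO, of strain C57BL/6 and 6 to 8 weeks old. In LmnaMyeKO mice the Lmna gene, which encodes lamin A/C, carries loxP sites on both alleles and is deleted by Cre made from the Lyz2 (LysM) locus, which is active in monocytes, macrophages and neutrophils. The 8 samples form 4 groups of 2: wt CD11b+Ly6C+, wt CD11b+Ly6G+, LmnaMyeKO CD11b+Ly6C+ and LmnaMyeKO CD11b+Ly6G+. The subset was read from the sample titles, since the cell-marker label gives CD11b+Ly6C+ for every sample.

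Complement is a cascade of plasma proteins that coats microbes and dying cells and recruits phagocytes. C1q binds immune complexes and apoptotic cells and starts the classical pathway, lectins start a parallel one, and the alternative pathway amplifies both at C3, whose fragments act as opsonins and as the anaphylatoxin C3a. Most plasma complement comes from the liver, but macrophages are the main source of C1q, and tissue macrophages of the spleen are known for it.

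The measurement was the authors' mean signal of each gene, an average of read counts divided by size factors, which scale each library to a common depth. It is a single pooled value per gene, given without an SD or an n, so no test was made. Levels by genotype, subset or sample were not analysed here. The lowest values of the column are whole numbers of reads in 8 libraries: of 1273 genes held out from the fit, 1273 matched a whole-read value within 2e-06, while such values cover 1.05% of that interval. The average therefore covers as many libraries as the series has samples, and which library is which sample is not known. Depending on the library, 1 read adds between 0.0653 and 0.157 to the mean signal. The reads behind each gene were bounded from these limits, and all 95% intervals cover counting error only. Since length sets how many reads a gene yields, levels were compared between genes as mean signal per kb, with the longest annotated transcript as the length unless another is named. Over all listed genes the median mean signal per kb was 22.6. In bulk samples such as these, fewer cells of a type and less RNA per cell cannot be told apart.

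The targeted gene Lmna had an authors' mean signal of 79.5 over all libraries, wt and LmnaMyeKO together, so this value does not check the genotype labels. Itgam, which encodes the CD11b used for sorting, had a mean signal of 54060. Of the other sorting markers, Ly6g had a mean signal per kb of 8346 and Ly6c2 one of 5378. Their order depended on the length used. Per kb of coding sequence Ly6c2 had 36674 and Ly6g 19536, and before division by length the mean signals were 14413 and 7853. Ly6c1, the near-identical neighbour of Ly6c2, had 73.8 per kb, and reads can be split between Ly6c1 and Ly6c2 with some uncertainty.

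Of the 8 members, 7 had a mean signal per kb above the median of all listed genes, and C3ar1 lay below it. On the same scale, 6 of the 8 were in the top 10% of listed genes, above 646.7. These were the 3 C1q genes, Cfp, C3 and C5ar1. Cfb lay between that bound and the median per kb, but below the median of 186.9 that genes with a coding sequence had per kb of coding sequence, at 171 on that scale. The 8 members together held 0.301% of the summed mean signal of all genes.

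C1qa, C1qb and C1qc encode the A, B and C chains, which join in equal numbers to form the C1q molecule. C1qa (ENSMUSG00000036887.5) had a mean signal of 9393, from between 59838 and 143776 reads, with a counting error of at most 0.801% (95%). For C1qb (ENSMUSG00000036905.8) the mean signal was 10558, from at least 67258 reads. C1qc (ENSMUSG00000036896.5) had a mean signal of 11225, from at least 71507 reads. The 3 genes together held 0.124% of the summed signal.

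Per length the chains lay close to each other. The mean signal per kb was 9704 for C1qb, 9331 for C1qc and 9032 for C1qa, so the highest was 1.07 times the lowest. These values placed them 141st, 149th and 157th of the genes with a length. In that order, C1qb stood between the ribosomal protein genes Rpl37a, at a mean signal per kb of 9739, and Rps2, at 9646. C1qc stood between the immunoglobulin gene Ighg2c, at 9341, and Ptma, at 9297. C1qa stood between Mxd1, at 9054, and Cd53, at 8942. The order of the chains depended on the length used. With the union of annotated exons, which adds a second, shorter C1qc transcript that reaches into introns, C1qc had 5813 per kb while C1qa and C1qb kept their values. With the coding sequence alone C1qc was the highest, at 15210 per kb, against 13911 for C1qb and 12780 for C1qa.

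The C1q genes are neighbours on the minus strand of chromosome 4 (GRCm38, annotation of GENCODE M21), each with 3 exons. C1qb lies at chr4:136880129-136886187, C1qc at chr4:136889804-136893065 and C1qa at chr4:136895917-136898803. The gap between C1qb and C1qc is 3616 bases and that between C1qc and C1qa is 2851 bases. No other annotated gene overlapped an exon of the 3.

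**Figure D1:**
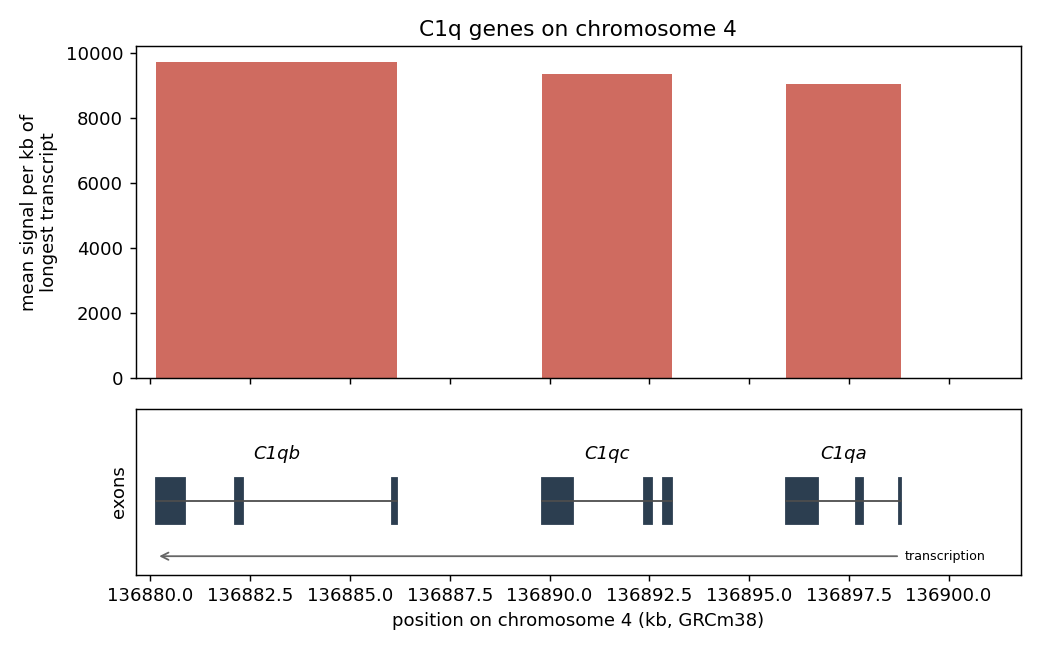
Map of the C1q genes. The upper panel gives the authors' mean signal per kb of longest transcript as a bar over each gene's extent, on a linear axis from 0, and the lower panel gives the exons of the longest transcripts (boxes) against position on chromosome 4 in kb, with the arrow in the direction of transcription. The 3 bars lie between 9032 and 9704 per kb.

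C1q circulates with the serine proteases C1r and C1s, and C1s cleaves C4 and C2. The genes of the 2 proteases were much lower than the C1q genes per length. C1ra had a mean signal per kb of 53.7, so that C1qb was 181 times higher on that scale. C1s1 had a mean signal per kb of 2.23, from between 41 and 101 reads, and their paralogs C1rb and C1s2 had mean signals of 0.222 and 0.633, which correspond to a few reads over all libraries. Reads shared between C1ra and C1rb, or between C1s1 and C1s2, could have been divided between the paralogs, so each of these values is uncertain. The substrates of C1s were higher than the proteases, with a mean signal per kb of 192 for C4b and 184.5 for C2. C4a, a close paralog of C4b, had 3.38 per kb, and the division of reads within this pair is uncertain as well. Of the 10 classical pathway genes of the list, 10 were listed and 7 had a mean signal of at least 10.

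C3 is the protein on which the pathways converge. C3 (ENSMUSG00000024164.15) lies on the minus strand at chr17:57203970-57228136 and has 41 exons. Its mean signal of 25331 rested on at least 161364 reads. Its longest transcript, of 5136 bases, is the longest among the members, and per kb C3 had a mean signal of 4932. On that scale C3 stood below each C1q gene, with C1qa 1.83 times higher, and below Cfp.

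Cfp encodes properdin, which stabilises the C3 convertase of the alternative pathway and is made mainly by myeloid cells. Cfp (ENSMUSG00000001128.7) lies on the minus strand at chrX:20925454-20931555 with 9 exons. Its mean signal was 10577 and its mean signal per kb was 6465, the 224th highest. Cfb encodes factor B, the protease part of that convertase. Cfb (ENSMUSG00000090231.10), at chr17:34856374-34862518 on the minus strand with 18 exons, had a mean signal of 391.9, from between 2496 and 6000 reads, with a counting error of at most 3.92% (95%). Per kb its mean signal was 142.5, so that C3 was 34.6 times and Cfp 45.4 times higher per length. Of the exon bases of Cfb, 2246 are shared on the same strand with Gm20547, a gene that is not listed in the table, so the value of Cfb is uncertain. Cfd encodes factor D, the protease that cleaves factor B. It had a mean signal per kb of 0.415, from at most 6 reads. In the mean over all libraries, the alternative pathway genes were uneven. Per kb, Cfp and C3 were in the top 10%, Cfb lay between that bound and the median of all listed genes, and Cfd lay below that median. Which subset or cell type each of these signals came from was not tested.

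C5ar1 and C3ar1 encode the receptors for the anaphylatoxins C5a and C3a, which draw and activate phagocytes. C5ar1 (ENSMUSG00000049130.6), at chr7:16246743-16259540 on the minus strand with 2 exons, had a mean signal of 8407 and a mean signal per kb of 3310. C3ar1 (ENSMUSG00000040552.8), at chr6:122847138-122856161 on the minus strand with 2 exons, had a mean signal of 44.4, from between 283 and 681 reads, with a counting error of at most 11.7% (95%). Its mean signal per kb was 10.3, so that C5ar1 was 321 times higher on that scale, a distance far beyond counting error. C5ar2, the other receptor of C5a, lay between them at a mean signal per kb of 567. Both members have long untranslated parts, and per kb of coding sequence C5ar1 had 7984 and C3ar1 31.1, at a ratio of 257. From C1qb to C3ar1, the highest and lowest members, the mean signal per kb spanned 940-fold with the longest transcript and 489.8-fold between C1qc and C3ar1 with the coding sequence.

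**Figure D2:**
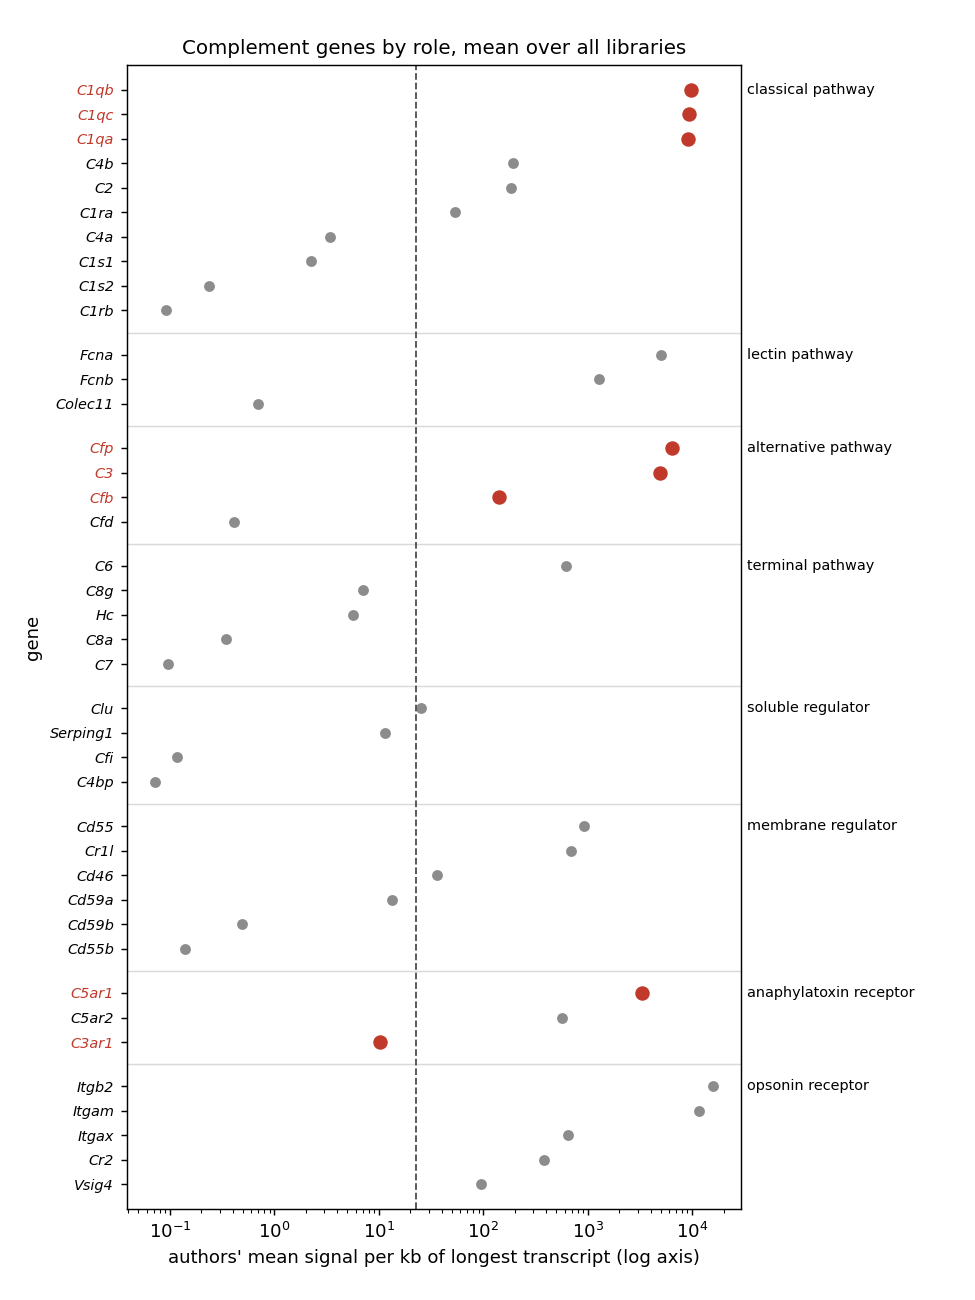
Complement genes of the list that are in the table and reported here, grouped by role. Each point is a gene's authors' mean signal per kb of longest transcript, averaged over all libraries, on a log axis, with the 8 members in red and the dashed line at 22.6, the median of all listed genes. C1qa, C1qb, C1qc, Cfp, C3 and C5ar1 lie between 3310 and 9704 per kb, Cfb at 142.5 and C3ar1 at 10.3.

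Around these members, 41 of 49 complement genes on the list were in the table, 29 of them (70.7%) with a mean signal of at least 10, beside 62% of all listed genes. The median per kb of the 41 was 53.7, and 24 of them exceeded the 22.6 of all listed genes. Among genes with a coding sequence, whose median per kb of longest transcript was 82.3, 20 of 40 complement genes exceeded it, and 19 of 40 did so per kb of coding sequence. In the lectin pathway, 3 of 8 genes were listed. The ficolins Fcna and Fcnb, pattern-recognition proteins that are known from macrophages and from neutrophils, had a mean signal per kb of 5027 and 1281, and Colec11 had 0.69 per kb. Mbl1, Mbl2, Colec10, Masp1 and Masp2 are not listed in the table. The ficolin Fcna thus stood near C3 per length, and C1qb was 1.93 times higher than Fcna.

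The terminal pathway builds the membrane attack complex from C5 to C9. Hc, the mouse gene of C5, had a mean signal per kb of 5.67, and C3 was 869 times higher per length. C6 differed from the rest of this pathway, at a mean signal per kb of 612. C8g had a mean signal per kb of 7.01, C8a one of 0.345 and C7 one of 0.0958, and C8b and C9 are not listed in the table. Per length, Hc, the source of C5a, was far below the receptor gene C5ar1, and 2 of the 5 listed terminal genes, C6 and Hc, had a mean signal of at least 10.

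Regulators restrain the cascade, and opsonin receptors bind fragments of C3. Of the membrane regulators, which protect host cells, Cd55 was the highest with a mean signal per kb of 921, followed by Cr1l at 687 and Cd46 at 36.1. Cd55b had a mean signal of 0.185 and Cd59b one of 0.387, both near-copies of genes with which reads may be shared. Among soluble regulators Clu had a mean signal per kb of 25.1 and Serping1 one of 11.5, while Cfi and C4bp had mean signals of 0.245 and 0.275 and Vtn is not listed in the table. The opsonin receptor genes Itgb2 and Itgam, whose products form complement receptor CR3, had a mean signal per kb of 15815 and 11546, above every member. Itgax, Cr2 and Vsig4 had 642.9, 376.9 and 94.2 per kb, in that order.

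Since macrophages are the known source of C1q, markers of macrophages and other cell types were read beside the C1q level. The sort selected cells by Ly6C or Ly6G as well as CD11b. How many cells without either Ly6C or Ly6G remained was not tested. Of 10 red pulp macrophage markers 10 were listed and none was near 0, with a summed mean signal of 117419, or 0.465% of all signal. Per kb the highest was Hmox1, which encodes a heme-degrading enzyme, at a mean signal of 13595, and the lowest was Cd163 at 427.9. Of the 10 markers, 1, Hmox1, lay above all 3 C1q genes per kb of longest transcript and 9 lay below them. Per kb of coding sequence, 2 lay above, Hmox1 at 24603 and the iron exporter gene Slc40a1 at 18590. The part of such cells in the C1q level was not tested. Neutrophil markers, 9 of 9 listed, held 7.42% of all signal, and per kb ran from S100a9, at a mean signal of 1397989, down to Ly6g at 8346. Monocyte markers, 8 of 8 listed, summed to a mean signal of 46140, and per kb ran from Ly6c2 at 5378 to Cx3cr1 at 157.

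Markers of other lineages were also read. B cell markers summed to a mean signal of 19680, with Cd79a the highest per kb at 4065. Those of erythroid cells and platelets summed to 13472, with Hbb-bs the highest per kb at 13663. T and NK cell markers summed to 1243, and per kb ran from Cd3d at 302 to Ncr1 at 26.99. Dendritic cell markers summed to 384, and per kb ran from Siglech at 50.4 to Xcr1 at 3.77.

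Promoter sequences were read for 6 of the 8 members from RefSeq (GRCm38.p6), as the 250 bases before the annotated start. The promoters of C1qa and Cfb were not analysed here. Letters searched on both strands were TTNNGNAA, a C/EBP motif, GAGGAA, a PU.1 motif, TGANTCA, an AP-1 motif, and TATAAA, the TATA box. Among 32841 promoters of the same length, 36.9% held the first, 23.3% the second, 6.75% the third and 12.4% the last. C3 held 3 C/EBP matches, C5ar1 and C1qc 1 each. GAGGAA was found 1 time in C1qb and, on the other strand, 1 time in C1qc. C3ar1 held 1 AP-1 and 1 TATA match, and Cfp held none of the 4 motifs in this window. A match describes letters and is no evidence of binding.

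The sequences printed are those of C1qb and C1qc, neighbours of near-equal level per kb of longest transcript. Those of C3, on which the pathways converge, and of C3ar1, the lowest member per kb, are printed as well. Each is written 5′ to 3′ on the minus strand, without bases that lie in annotated exons, and capitals mark the motif letters. The stretch of C1qb is chr4:136886201-136886450, that of C1qc is chr4:136893066-136893164, without its C/EBP match, which lies in an annotated exon, that of C3 is chr17:57228137-57228386 and that of C3ar1 is chr6:122856162-122856407.
C1qb: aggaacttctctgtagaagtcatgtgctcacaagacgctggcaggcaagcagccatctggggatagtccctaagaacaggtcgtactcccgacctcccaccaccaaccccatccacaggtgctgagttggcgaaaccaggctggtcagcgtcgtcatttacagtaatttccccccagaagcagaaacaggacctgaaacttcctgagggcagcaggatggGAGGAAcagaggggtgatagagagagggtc
C1qc: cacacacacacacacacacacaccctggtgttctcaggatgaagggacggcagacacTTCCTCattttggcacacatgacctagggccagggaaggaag
C3: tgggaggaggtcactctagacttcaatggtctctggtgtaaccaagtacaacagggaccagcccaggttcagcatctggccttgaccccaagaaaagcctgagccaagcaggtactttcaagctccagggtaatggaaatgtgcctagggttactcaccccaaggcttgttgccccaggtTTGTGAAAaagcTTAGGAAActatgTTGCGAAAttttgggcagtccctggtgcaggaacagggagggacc
C3ar1: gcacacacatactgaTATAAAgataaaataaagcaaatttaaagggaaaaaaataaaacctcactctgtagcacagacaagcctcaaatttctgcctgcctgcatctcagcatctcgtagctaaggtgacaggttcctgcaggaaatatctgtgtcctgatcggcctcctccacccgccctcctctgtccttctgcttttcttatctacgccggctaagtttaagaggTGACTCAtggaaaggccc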

How the data were processed

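Per the labels and the study's methods, the authors used Cutadapt 1.14 for trimming, STAR 2.5.2b for alignment to mm10, RSEM 1.3.0 with GENCODE M12 for gene counts, and DESeq2 1.20.0. The deposited table gives 1 mean signal per gene, which the authors computed as counts divided by size factors and averaged over libraries. Its other columns hold the authors' comparison of genotypes (log2 fold change, standard error, test statistic, p-values and fold change) and were not used. No values per sample were analysed here, so the planned count test was not run.

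From the mean signal, the number of libraries and the worth of 1 read were solved from the lowest values, after a test on simulated means. Lengths and positions came from GENCODE M21, in which 23004 of 23084 identifiers were found. Of the rows that share a symbol (28 symbols), the most abundant was kept. Length alternatives were the union of exons, the coding sequence and a length shortened by 200 bases. The members, the lists and the genes named (all members, up to 3 highest per role, genes below a mean signal of 10 or not listed, extremes of marker lists, given per kb, and neighbours in rank) were chosen with earlier results of these data known. Outside this rule, C1ra, C2, C4a, C4b, Cr2, Vsig4, Gm20547, Hmox1 and Siglech were named after their values were seen. Some genes of these lists are not reported here. Python 3.11.15, pandas 2.3.3, numpy 2.4.6 and matplotlib 3.10.9 were used.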

Additional observations from a re-analysis of the deposited data

How the results depend on the processing

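The ratio of the highest to the lowest C1q gene in mean signal per kb was 1.07 with the longest transcript, 1.67 with the union of exons and 1.19 with the coding sequence, and the annotated C1qc transcripts account for the second value, since C1qa and C1qb have the same length in both. The ratio of the highest to the lowest member was 940 with the longest transcript, 489.8 with the coding sequence and 1098 with a length shortened by 200 bases. Under all 4 lengths Cfb and C3ar1 were the lowest members, while the order of the other 6 changed with the union of exons and with the coding sequence. The count of members in the top 10% per kb was 6 among all genes, among genes with a mean signal of at least 10 and among protein-coding genes. In alternatives chosen after seeing the data, 7 members exceeded the median per kb of longest transcript, both of all genes with a length and of genes with a coding sequence. With the coding sequence as length in the latter genes 6 did, without Cfb. Complement genes above the median numbered 24 of 41, 20 of 40 and 19 of 40 in these settings, so most of that change came with the genes over which the median was taken. Complement genes at or above the minimum numbered 29 with a minimum of 10, 33 with 1 and 23 with 100. No paired analysis was possible because levels of single samples were not analysed. The alternatives planned for a count test were likewise not run: DESeq2 size factors against edgeR's TMM, no filter on low counts, all 8 samples in the fit, the replicate block and leaving out each replicate. Depth limits the genes with a few reads, among them Cfd, C7, C1rb, Cfi and C4bp, whose levels carry large counting error.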

Other observations

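The size factors recovered from the lowest values ran from 0.796 to 1.91, with the second highest at 1.05. The library with the highest factor cannot be assigned to a sample from the mean signal. Among genes low enough to be resolved into single reads, 0 had reads in 1 library only.

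C6 stood out within the terminal pathway. Its mean signal per kb of 612 was 108 times that of Hc, and it rested on between 11219 and 26958 reads, so counting error is small beside that ratio.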
